A study of Mus musculus with 8 samples.

Results

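De novo lipogenesis, the synthesis of fatty acids from carbohydrate in the liver, was examined through 10 genes among the 52636 genes of each library. They are the regulators Srebf1, Mlxipl and Thrsp, the suppliers of substrate and reducing power Acly and Me1, and the enzymes of synthesis, elongation and desaturation Acaca, Acacb, Fasn, Elovl6 and Scd1. The genes were chosen by symbol, as every row whose Ensembl identifier maps to one of these names, and the rule uses no measured value. The values came from livers of 8 male C57BL/6J mice, labelled wild-type, with 4 mice per group and 1 library per mouse. All mice received at 7 weeks of age an adeno-associated virus of serotype AAV8, which carried either GFP (AAV8-GFP, mice 303, 311, 314 and 315) or human AGXT (AAV8-AGXT, mice 308, 309, 316 and 319). AGXT, alanine-glyoxylate aminotransferase, converts glyoxylate to glycine in hepatocyte peroxisomes. Both transgenes were driven by the TBG promoter, which is active in hepatocytes, so that other liver cells carried no intended change. From 8 weeks of age all mice were fed the same diet rich in fat, fructose and cholesterol (the MASH diet) for 24 weeks, and chow-fed mice were not analysed here. The comparison asked whether transcripts of fatty acid synthesis differed between livers of mice on this diet with and without AGXT overexpression.

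SREBP1, the product of Srebf1, is made as a membrane-bound precursor that SCAP escorts from the endoplasmic reticulum and INSIG proteins hold back. Insulin and the oxysterol receptor LXR raise its transcription, and the released factor activates genes of fatty acid synthesis. ChREBP, the product of Mlxipl, responds to metabolites of glucose and fructose and shares many targets with SREBP1. Citrate exported from mitochondria is cleaved by ATP citrate lyase (Acly) to acetyl-CoA, carboxylated to malonyl-CoA, and built by fatty acid synthase (Fasn) into palmitate at the expense of NADPH. Malonyl-CoA also inhibits CPT1, the gate to mitochondrial fatty acid oxidation. In fatty liver the pathway is known to run at a high rate in spite of insulin resistance.

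Each library held between 17095433 and 28780140 read pairs on genes. The lowest raw count of any of the 10 genes in any mouse was 483, for Thrsp in mouse 308, so no value rested on few counts. Mouse 308 had the smallest share of its read pairs on genes, at 56.3%, whereas the highest share of any mouse was 69.1%. The human AGXT transgene is not part of the mouse annotation. Endogenous Agxt had means of 163.8 ± 15.8 CPM with AAV8-GFP and 305.2 ± 98.3 CPM with AAV8-AGXT (SD, n = 4 each). It passed as higher without overlap between the groups (log2 fold change 0.90, edgeR adjusted p = 0.0489). Whether reads of the human transgene were counted on mouse Agxt was not tested, so Agxt was not used to check the labels. Summed hepatocyte markers were between 74279 and 85416 CPM with AAV8-GFP and between 85901 and 118903 CPM with AAV8-AGXT, with no overlap. Markers of stellate cells and fibroblasts summed to between 568.5 and 999.0 CPM with AAV8-GFP and between 258.1 and 646.0 CPM with AAV8-AGXT, and those of cholangiocytes to between 225.2 and 675.8 CPM and between 74.3 and 273.8 CPM. At an adjusted p under 0.05, 2 of 10 stellate markers were lower, and none of 6 cholangiocyte, 11 hepatocyte or 10 macrophage markers passed. Over all tested genes 4.35% passed. At an unadjusted p under 0.05, 7 stellate, 5 cholangiocyte and 3 macrophage markers were lower. At the same threshold 4 hepatocyte markers and 1 macrophage marker were higher, and the share over all tested genes was 26.2%. Macrophage markers summed to between 629.4 and 1091 CPM with AAV8-GFP and between 271.7 and 934.3 CPM with AAV8-AGXT. Of 6 adipocyte markers, which summed to between 102.9 and 336.2 CPM with AAV8-GFP and between 150.4 and 334.9 CPM with AAV8-AGXT, 2 were tested and 1, Cfd, passed higher (log2 fold change 1.93, edgeR adjusted p = 0.0487), while Fabp4 was at -0.56 (edgeR adjusted p = 0.471). Among the untested ones Lep was at 0 and Adipoq under 0.1 CPM in all mice. Fewer cells of a type and less RNA per cell cannot be told apart in whole-liver RNA, and the part of these cell type markers in the results below was not tested.

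None of the 10 genes passed an adjusted p under 0.05 between the groups in edgeR's quasi-likelihood test, the smallest adjusted p being 0.0673, whereas 4.35% of the 15248 genes tested passed. All 10 genes were tested, and their log2 fold changes (AAV8-AGXT against AAV8-GFP) were positive for 5 and negative for 5, with a median of -0.05 beside 0.02 over all tested genes. Without adjustment, 4 of the 10 genes had a p under 0.05, a share of 40% against a background of 26.2%. Of these, Acacb was higher and Srebf1, Acaca and Fasn were lower in AAV8-AGXT mice. The Wald test of DESeq2 called the same 4 genes at an adjusted p under 0.05, against 12.4% of the genes it tested. Acaca and Fasn were the 2 genes without overlap between the CPM of the groups, a share of 20% that is close to the background of 16.6%. The plot of fitted changes shows the 10 genes with their intervals.

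**Figure D1:**
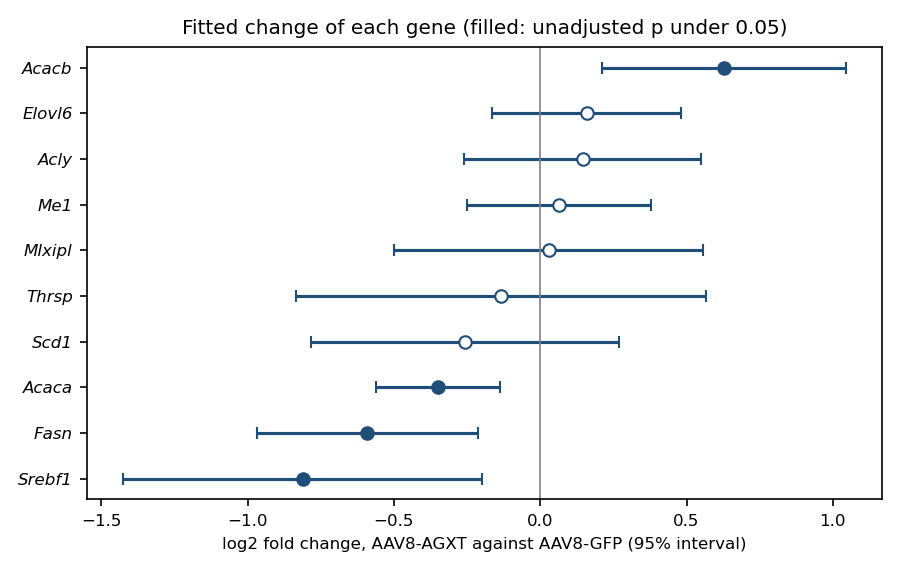
Log2 fold change of each lipogenic gene in AAV8-AGXT against AAV8-GFP livers from edgeR's quasi-likelihood fit, with 95% intervals (n = 4 mice per group), ordered by size; filled points have an unadjusted p under 0.05. The estimates run from -0.81 for Srebf1 to 0.63 for Acacb, and the intervals of the 4 filled genes exclude 0 although no adjusted p was under 0.05.

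Expression is given as counts-per-million (CPM) normalised by the TMM method, and single values follow the order of the mice above. Srebf1 (ENSMUSG00000020538, chr11:60199089-60222581, minus strand, GRCm38) was at 111.0, 119.3, 160.5 and 241.4 CPM in AAV8-GFP mice and at 92.7, 60.3, 83.7 and 123.5 CPM in AAV8-AGXT mice. The groups overlapped through AAV8-AGXT mouse 319, which lay above AAV8-GFP mice 303 and 311, while AAV8-GFP mouse 315 had the highest value of all. The means were 158.1 ± 59.6 and 90.1 ± 26.1 CPM (SD, n = 4 each), which gave a fitted log2 fold change of -0.81 (standard error, s.e., 0.28, 95% interval -1.42 to -0.20). The adjusted p from edgeR was 0.104, and the two-sided exact permutation test of the log2 CPM gave p = 0.0857. Without mouse 315 the log2 fold change was -0.53, with an adjusted p of 0.183 in edgeR. Srebf1 encodes the SREBP1a and SREBP1c isoforms from separate first exons, which counts per gene do not separate, and some of its exon bases are shared with Rai1 on the other strand and with Mir6922.

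Mlxipl (ENSMUSG00000005373, chr5:135089890-135138382, plus strand) was the regulator with the highest level per kilobase of exon. It was at 427.1, 627.6, 511.2 and 922.9 CPM in AAV8-GFP mice and at 783.6, 556.0, 532.9 and 667.5 CPM in AAV8-AGXT mice. All 4 AAV8-AGXT values lay inside the AAV8-GFP range. The means of 622.2 ± 216.7 and 635.0 ± 115.2 CPM (SD, n = 4 each) gave a log2 fold change of 0.03, and its 95% interval, from -0.50 to 0.56, left room for a change of either direction (edgeR adjusted p = 0.954). Isoforms of ChREBP are counted together in this value, and some exon bases are shared with Gm43500 on the other strand.

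Thrsp (ENSMUSG00000035686, chr7:97412938-97417730, minus strand), or Spot 14, is a small nuclear and cytosolic protein induced by thyroid hormone and carbohydrate that promotes lipogenesis. Its values were 72.5, 107.5, 57.0 and 65.7 CPM in AAV8-GFP mice and 33.3, 108.3, 69.1 and 65.1 CPM in AAV8-AGXT mice. The lowest and the highest of the 8 values, in mice 308 and 309, were both in the AAV8-AGXT group. The log2 fold change was -0.13 (s.e. 0.31, 95% interval -0.83 to 0.57, edgeR adjusted p = 0.823), the widest interval among the 10 genes.

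The sequences before the transcript starts of these genes were searched for letters that the regulators are known to read. In RefSeq windows of 250 bases before each annotated start (GRCm38.p6), 9 of the 10 genes had a window, 13 windows in all. The search covered both strands and looked for the E-box core CACGTG, to which ChREBP-like factors bind, for a sterol response element, TCACNCCAC, and for the boxes of the SREBP co-factors NF-Y, CCAAT, and Sp1, GGGCGG. The E-box was in 1 window and the sterol response element in 1, both of Mlxipl, against shares of 6.02% and 1.05% of 32851 windows of the same length. The NF-Y box was in 7 of the 13 windows and the Sp1 box in 5, against 33.8% and 32.7% of all windows. The only matches to overlap each other in these 13 windows were a pair of NF-Y boxes of Fasn. A match is a description of letters only, and the data hold no measurement of binding.

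The windows of Mlxipl are shown because they alone held the E-box and the sterol response element, and those of Srebf1 and Fasn because these genes had the largest negative changes. Of the 3 Srebf1 windows only the one with most matches is shown. Each is written 5′ to 3′ on the strand of the gene, with matches on either strand in capitals. The window before the annotated gene start of Mlxipl, chr5:135089640-135089889, had its E-box 98 to 93 bases before the start, with a reversed NF-Y box and 2 Sp1 boxes. The window at chr5:135106641-135106890 lies inside the gene, before another annotated start, and had its sterol response element 136 to 128 bases before that start. The Srebf1 window at chr11:60210472-60210721 lies inside the gene as well and had 2 Sp1 boxes and a reversed NF-Y box. The Srebf1 windows not shown were chr11:60222582-60222831, which adjoins the gene and had 1 NF-Y box, and chr11:60220628-60220877, which had 2 Sp1 boxes. The Fasn window at chr11:120824548-120824797 adjoins the gene and had 3 NF-Y boxes, of which 2 overlapped on opposite strands.
Mlxipl, gene start: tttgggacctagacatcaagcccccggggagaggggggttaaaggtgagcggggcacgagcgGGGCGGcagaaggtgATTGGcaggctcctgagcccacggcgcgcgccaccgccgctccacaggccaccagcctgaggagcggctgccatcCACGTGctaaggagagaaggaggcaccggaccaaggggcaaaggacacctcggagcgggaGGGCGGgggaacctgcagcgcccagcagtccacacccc
Mlxipl, internal start: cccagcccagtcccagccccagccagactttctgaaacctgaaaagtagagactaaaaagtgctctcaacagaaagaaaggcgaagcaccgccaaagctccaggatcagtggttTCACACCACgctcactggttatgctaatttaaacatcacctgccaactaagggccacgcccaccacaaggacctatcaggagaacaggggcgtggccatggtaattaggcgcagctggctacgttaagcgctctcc
Srebf1, internal start: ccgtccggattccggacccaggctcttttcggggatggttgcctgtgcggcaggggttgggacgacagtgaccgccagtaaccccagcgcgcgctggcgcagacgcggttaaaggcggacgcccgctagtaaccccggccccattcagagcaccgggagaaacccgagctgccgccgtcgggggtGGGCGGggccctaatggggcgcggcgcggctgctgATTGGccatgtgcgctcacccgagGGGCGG
Fasn: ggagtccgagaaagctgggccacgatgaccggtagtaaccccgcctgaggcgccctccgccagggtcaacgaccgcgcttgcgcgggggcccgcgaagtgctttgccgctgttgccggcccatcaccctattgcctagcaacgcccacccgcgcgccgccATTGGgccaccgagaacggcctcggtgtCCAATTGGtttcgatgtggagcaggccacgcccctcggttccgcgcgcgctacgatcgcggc
The Acaca window, chr11:84195188-84195437, which lies inside that gene, held none of the 4 motifs, and the Acly window held 4 Sp1 boxes.

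Acly and Me1 supply the acetyl-CoA and part of the NADPH for synthesis, and the difference of neither passed a test. Acly (ENSMUSG00000020917, chr11:100476353-100528000, minus strand) was at 40.7, 42.5, 44.9 and 67.2 CPM in AAV8-GFP mice and at 48.5, 57.9, 44.2 and 65.4 CPM in AAV8-AGXT mice. AAV8-GFP mouse 315 stood apart from its group, and of the remaining AAV8-GFP values those of mice 303 and 311 lay below the AAV8-AGXT range and that of mouse 314 lay just inside it. The log2 fold change was 0.15 (s.e. 0.18, 95% interval -0.26 to 0.55, edgeR adjusted p = 0.649), and without mouse 315 it was 0.34 (edgeR adjusted p = 0.177). Me1 (ENSMUSG00000032418, chr9:86581371-86695953, minus strand), the cytosolic malic enzyme, was at 132.6, 110.4, 125.9 and 148.0 CPM in AAV8-GFP mice and at 148.3, 149.4, 137.8 and 105.2 CPM in AAV8-AGXT mice. AAV8-AGXT mouse 319 had the lowest value of all and mouse 309 the highest. The log2 fold change was 0.07 (s.e. 0.14, 95% interval -0.25 to 0.38, edgeR adjusted p = 0.806). A few exon bases of Me1 are shared with A330041J22Rik on the other strand.

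The mouse-by-mouse values of all 10 genes are plotted on separate linear scales.

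**Figure D2:**
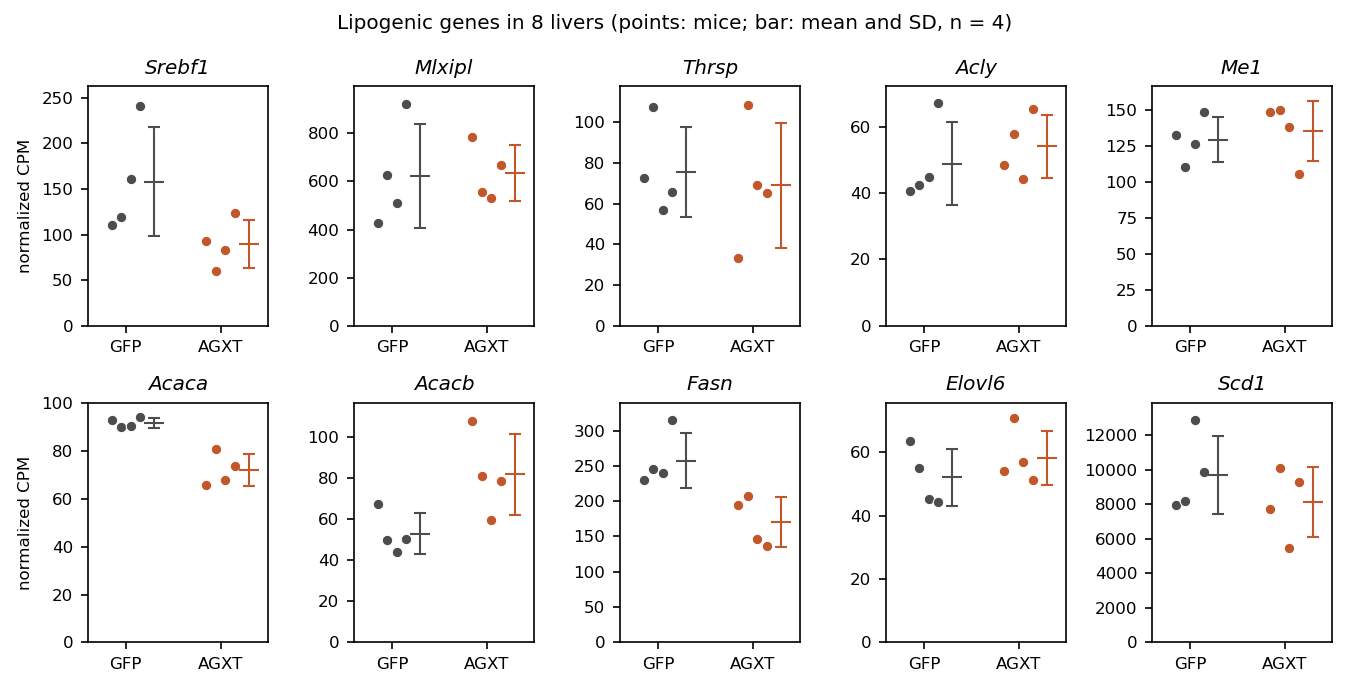
Normalized CPM of the 10 lipogenic genes in each of 8 livers, 1 panel per gene with the vertical axis from 0; points are mice of the AAV8-GFP (grey) and AAV8-AGXT (orange) groups, and bars give mean and SD (n = 4). Acaca and Fasn are the panels without overlap, Acacb overlaps through the lowest AAV8-AGXT mouse at 59.8 CPM, and the other groups intermingle more.

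The 2 acetyl-CoA carboxylases had log2 fold changes of opposite sign. Acaca encodes the cytosolic enzyme whose malonyl-CoA serves fatty acid synthesis, and Acacb encodes the enzyme at the outer mitochondrial membrane whose malonyl-CoA restrains CPT1. Acaca (ENSMUSG00000020532, chr11:84129672-84401651, plus strand) was at 93.2, 89.9, 90.4 and 94.1 CPM in AAV8-GFP mice and at 65.9, 80.8, 67.9 and 73.9 CPM in AAV8-AGXT mice. Every AAV8-AGXT mouse lay below every AAV8-GFP mouse, and the AAV8-GFP values were tightly grouped. The means were 91.9 ± 2.06 and 72.1 ± 6.68 CPM (SD, n = 4 each), which gave a fitted log2 fold change of -0.35 (s.e. 0.10, 95% interval -0.56 to -0.14). The exact permutation test gave p = 0.0286, the smallest that 4 mice against 4 allow, and the adjusted p from edgeR was 0.0673. Leaving out 1 mouse at a time, the log2 fold change of Acaca stayed between -0.43 and -0.32, and it passed in edgeR only without mouse 309.

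Acacb (ENSMUSG00000042010, chr5:114146535-114250761, plus strand) was at 67.6, 50.05, 44.1 and 50.3 CPM in AAV8-GFP mice and at 108.2, 81.4, 59.8 and 78.6 CPM in AAV8-AGXT mice. The groups overlapped in that AAV8-AGXT mouse 316 lay below AAV8-GFP mouse 303, and mouse 308 had the highest value. The means were 53.0 ± 10.1 and 82.0 ± 19.9 CPM (SD, n = 4 each), which gave a fitted log2 fold change of 0.63 (s.e. 0.19, 95% interval 0.21 to 1.04). The adjusted p from edgeR was 0.0789, and the exact permutation test gave p = 0.0571. Acacb was the one gene of the 4 with a p under 0.05 whose log2 fold change shrank under scaling to summed hepatocyte markers, to 0.28 (edgeR adjusted p = 0.277), where the median of all genes was -0.29. Relative to that median the difference was 0.58, beside 0.61 in the fit reported here.

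Since both genes were counted in the same library, their ratio needs no scaling between libraries. The ratio of Acacb to Acaca counts was 0.725, 0.557, 0.488 and 0.535 in AAV8-GFP mice and 1.64, 1.01, 0.881 and 1.06 in AAV8-AGXT mice. The highest AAV8-GFP ratio, in mouse 303, lay below the lowest AAV8-AGXT ratio, in mouse 316. The difference of mean log2 ratios was 0.97, or 1.96-fold (exact permutation test, two-sided, p = 0.0286), and the Benjamini-Hochberg adjusted value over the 3 ratios computed was 0.0857 (exact permutation test), which does not pass 0.05. Leaving out AAV8-AGXT mouse 308, which had the highest ratio, gave 0.78 (exact permutation test, p = 0.0571). Genes that modify these enzymes were tested too. Of 9 genes for AMPK subunits, its activating kinase, malonyl-CoA decarboxylase and the ACC-binding protein Mid1ip1 none passed in edgeR, against 4.35% of all tested genes. An unadjusted p under 0.05 was found for 2, against 26.2%, and DESeq2 called the same 2, against 12.4%. These were Prkab2, with a log2 fold change of -0.50 (s.e. 0.13, edgeR adjusted p = 0.0622), and Prkag2, with 0.45 (s.e. 0.12, adjusted p = 0.0674), both of which share exon bases with other genes.

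**Figure D3:**
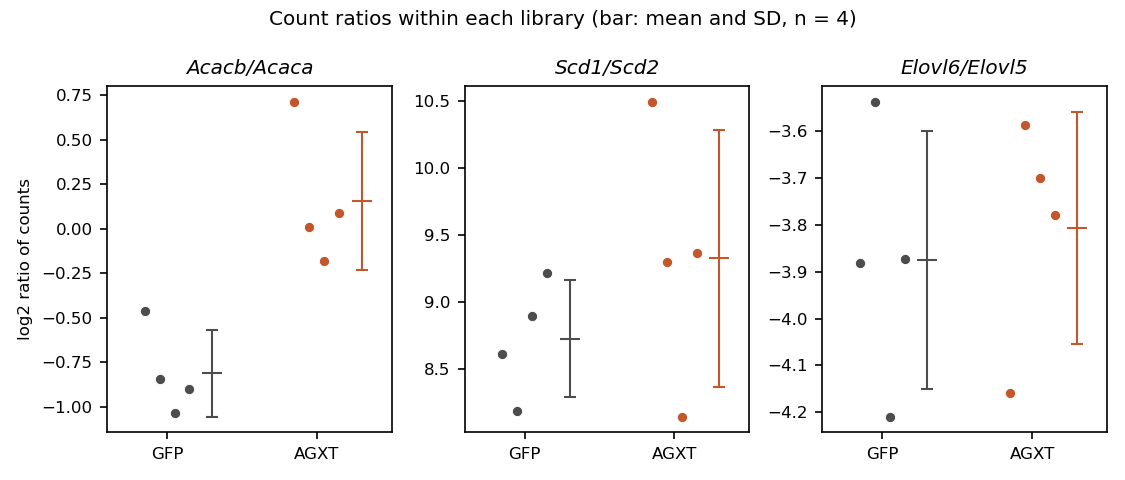
Log2 ratio of raw counts within each library for Acacb to Acaca, Scd1 to Scd2 and Elovl6 to Elovl5, each panel on its own scale; points are mice of the AAV8-GFP (grey) and AAV8-AGXT (orange) groups and bars give mean and SD (n = 4). The groups are apart only for Acacb to Acaca, where the means differ by 0.97, and intermingle in the other panels.

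Fasn (ENSMUSG00000025153, chr11:120805846-120824547, minus strand), which builds palmitate from malonyl-CoA, was at 229.4, 245.8, 240.1 and 314.6 CPM in AAV8-GFP mice and at 194.1, 207.5, 146.1 and 136.0 CPM in AAV8-AGXT mice. The lowest AAV8-GFP mouse, 303, exceeded the highest AAV8-AGXT mouse, 309. The means were 257.5 ± 38.7 and 170.9 ± 35.2 CPM (SD, n = 4 each), which gave a fitted log2 fold change of -0.59 (s.e. 0.17, 95% interval -0.97 to -0.21). The exact permutation test gave p = 0.0286 and edgeR an adjusted p of 0.0732. Of the 10 genes Fasn was called by most alternatives, 6 of 17, and its log2 fold change was between -0.89 and -0.48 over all of them. Its adjusted p in edgeR reached 0.169 without mouse 311.

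Elovl6 and Scd1 act on the palmitate that Fasn makes. Elovl6 (ENSMUSG00000041220, chr3:129532355-129638495, plus strand), which lengthens palmitate to stearate, was at 63.4, 55.1, 45.3 and 44.4 CPM in AAV8-GFP mice and at 53.9, 70.7, 56.9 and 51.2 CPM in AAV8-AGXT mice. The groups intermingled, with mouse 309 highest and mouse 315 lowest. The log2 fold change was 0.16 (s.e. 0.15, 95% interval -0.16 to 0.48, edgeR adjusted p = 0.520). Elovl6 shares a few exon bases with Gm35986 on the other strand. Its ratio to Elovl5, which lengthens polyunsaturated fatty acids, differed by 0.07 on the log2 scale (exact permutation test, p = 0.686).

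Scd1 (ENSMUSG00000037071, chr19:44394455-44407879, minus strand), which desaturates stearate and palmitate, was at 7950, 8170, 12863 and 9877 CPM in AAV8-GFP mice and at 7704, 10104, 5455 and 9271 CPM in AAV8-AGXT mice. AAV8-GFP mouse 314 was highest and AAV8-AGXT mouse 316 lowest, and the other values interleaved. The log2 fold change was -0.26 (s.e. 0.24, 95% interval -0.78 to 0.27, edgeR adjusted p = 0.524). Scd1 made up between 82.0% and 90.7% of the summed CPM of the 10 genes in every mouse, so that a sum over the pathway is chiefly Scd1. The paralog Scd2 had means of 22.96 ± 5.48 CPM with AAV8-GFP and 13.6 ± 5.95 CPM with AAV8-AGXT (SD, n = 4 each), with a log2 fold change of -0.75 (s.e. 0.33, edgeR adjusted p = 0.183). The log2 ratio of Scd1 to Scd2 differed by 0.60 (exact permutation test, p = 0.286, Benjamini-Hochberg adjusted 0.429). Read pairs aligned at several places were not counted on a gene, which could lower the counts of the close Scd paralogs.

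Apart from the share of Scd1 in the summed CPM, levels of different genes were set side by side only per kilobase of exon. In AAV8-GFP mice the order ran from Scd1 at 1986 ± 464 CPM per kb through Mlxipl at 112.4 ± 39.1, Thrsp at 34.6 ± 10.1, Me1 at 33.6 ± 4.05, Srebf1 at 28.1 ± 10.6 and Fasn at 23.5 ± 3.54 (SD, n = 4 each). Below these came Acly at 9.25 ± 2.34 CPM per kb, Elovl6 at 8.10 ± 1.39, Acacb at 5.50 ± 1.05 and Acaca at 5.38 ± 0.12 (SD, n = 4 each). Scd1 exceeded Mlxipl, Mlxipl exceeded Thrsp, and Fasn exceeded Acly in all 8 mice. The other neighbours did not keep their order in every mouse. Thrsp lay above Me1 in 3 of 8 mice, Srebf1 above Fasn in 4 of 8, and Acly above Elovl6 in 4 of 8. Me1 lay above Srebf1 in 7 of 8 mice, and Elovl6 above Acacb in 6 of 8, with 2 of 4 in the AAV8-AGXT group. Acacb lay above Acaca per kilobase in 1 of 4 AAV8-GFP and in 4 of 4 AAV8-AGXT mice, where the means were 8.51 ± 2.07 and 4.22 ± 0.39 CPM per kb (SD, n = 4 each). Exon length here is the union of all annotated exons, which for Acaca is 17074 bases and may exceed the transcripts present in liver.

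Within the groups the 10 genes did not vary as a block. Over the 45 pairs, the correlation of log2 CPM in 8 mice after removal of group means had a median of 0.076 and was positive for 27 pairs. It ranged from -0.91 for Srebf1 and Elovl6 to 0.76 for Me1 and Fasn. Srebf1 and Mlxipl had r = 0.72, whereas Srebf1 and Fasn, a known target, had r = -0.0015. These are descriptions over 8 mice that share library scaling, with no test. By the same measure, which leaves out any difference between the groups, the tested genes that varied most like Srebf1 within groups were Akr1a1 (r = 0.98), Gm9512, Rnh1 and Shmt1, and among those most like Fasn were F730311O21Rik (r = 0.98), B430119L08Rik and Tbc1d8. For Mlxipl they were Gm10644 (r = 0.99), Eral1, Ppp5c and 4732465J04Rik, and for Thrsp they were Gas7 (r = 0.97), Tep1, Gm26947 and Fam124a. None of these was one of the 10 lipogenic genes, and their group differences need not be alike, since Shmt1 had a log2 fold change of 0.59 and B430119L08Rik one of 1.95. Gm10644, F730311O21Rik and Gm26947 had low means, of 1.56, 1.36 and 1.01 CPM. Gm10644, B430119L08Rik and several of the others share exon bases with other genes. These r values were picked as the highest over all tested genes in 8 mice, and whether chance would give them was not tested.

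The genes around the pathway were read from lists, of which 12 described pathways or liver zones. Over all tested genes 4.35% passed in edgeR and 26.2% had an unadjusted p under 0.05, and DESeq2 called 12.4% of the genes it tested. Of 16 tested genes for processing of SREBP and its regulators, 1 passed higher and none lower, with a median log2 fold change of 0.09. This was Scap, the escort of SREBP, which rose from 86.4 ± 9.28 to 130.6 ± 21.6 CPM (SD, n = 4 each; fitted log2 fold change 0.60, s.e. 0.14, edgeR adjusted p = 0.0450) and shares exon bases with 5830462I19Rik on the other strand. Insig2, which retains SREBP and is abundant in liver, was at 419.3 ± 49.4 and 450.8 ± 151.2 CPM (SD, n = 4 each), and the LXR gene Nr1h3 had a log2 fold change of 0.34 (edgeR adjusted p = 0.165). Of 14 partners and carbohydrate-response targets of ChREBP none passed in edgeR or DESeq2, none had an unadjusted p under 0.05 in edgeR, and the median was -0.07. Among them Pklr, liver pyruvate kinase and a classical ChREBP target, had a log2 fold change of -0.10 (s.e. 0.40, edgeR adjusted p = 0.898), and Txnip, induced by glucose, had -0.02 (s.e. 0.20, adjusted p = 0.957).

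Of 8 genes for citrate export, acetyl-CoA and NADPH supply, 1 passed higher, none lower, and the median was 0.24. Acss2, which makes acetyl-CoA from acetate, rose from 37.4 ± 1.83 to 51.4 ± 0.67 CPM (SD, n = 4 each; fitted log2 fold change 0.46, s.e. 0.08, edgeR adjusted p = 0.0292) and shares exon bases with Gss, Ggt7 and an antisense gene. The mitochondrial citrate carrier Slc25a1 had a log2 fold change of 0.24 (edgeR adjusted p = 0.280), and Pgd, an NADPH source of the pentose phosphate pathway, had -0.44 (adjusted p = 0.0724). Of the other fatty acid elongases and desaturases, 14 of 16 genes were tested, 1 passed higher and none lower, with a median of 0.26. Fads3, a desaturase, rose from 23.5 ± 7.93 to 48.4 ± 10.5 CPM (SD, n = 4 each; fitted log2 fold change 1.04, edgeR adjusted p = 0.0427). Scd3 and Scd4 were the untested genes, with group means under 0.4 CPM.

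Of 14 genes that carry the insulin signal to lipogenesis 1 passed higher and none lower, with a median of 0.25. Rptor, a subunit of the kinase complex mTORC1, rose with a log2 fold change of 0.55 (s.e. 0.12, edgeR adjusted p = 0.0410) and shares exon bases with an antisense gene. Of 19 genes of triglyceride and lipoprotein handling 2 passed higher and none lower, with a median of 0.24. These were Gpam, which takes the first step of glycerolipid synthesis (log2 fold change 0.84, s.e. 0.17, edgeR adjusted p = 0.0363), and Pnpla2, the triglyceride lipase ATGL (log2 fold change 0.66, s.e. 0.16, adjusted p = 0.0484). Of 16 sterol synthesis genes set by SREBP2 none passed in edgeR, and the median was 0.31. An unadjusted p under 0.05 was found for 4, against 26.2% of all tested genes, and DESeq2 called 1 (Stard4), against 12.4%. The smallest p in edgeR belonged to Stard4 too, a carrier of cholesterol, with a log2 fold change of 0.83 (s.e. 0.25, edgeR adjusted p = 0.0835).

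Of 12 genes of fasting and feeding, 1 passed higher and none lower, with a median of 0.35. Cpt1a, the transferase that malonyl-CoA inhibits, rose from 492.9 ± 74.6 to 818.3 ± 101.8 CPM (SD, n = 4 each; fitted log2 fold change 0.73, edgeR adjusted p = 0.0374). Among 15 clock genes, several of which pace lipogenic transcripts through the day, 4 passed higher (Cry2, Tef, Hlf and Ciart) and none lower, with a median of 0.56. DESeq2 called 10 of them, against 12.4% of all genes it tested, among them Arntl, Npas2 and Cry1, which had negative log2 fold changes. Of 10 pericentral hepatocyte genes 3 passed higher (Cyp2e1, Oat and Slc1a2) and none lower, against 4.35% of all tested genes, with a median of 0.47. Of 10 periportal genes none passed in edgeR, with a median of 0.45 and the smallest p for Pigr (log2 fold change 0.61, edgeR adjusted p = 0.0528). An unadjusted p under 0.05 was found for 4 periportal genes, against 26.2% of all tested genes, and DESeq2 called 1 (Pigr), against 12.4%. The part of time of day or of lobular zone in the values of the 10 lipogenic genes was not tested. None of the 14 genes called in these lists kept an adjusted p under 0.05 in edgeR without mouse 311, without mouse 314 or without mouse 319, and 13 kept it without mouse 309. With total counts 8 of the 14 lost the call (Acss2, Scap, Fads3, Rptor, Gpam, Pnpla2, Cpt1a and Cry2), and with hepatocyte scaling 10 did (these and Tef and Hlf). Under hepatocyte scaling the log2 fold change was 0.15 for Acss2 and 0.26 for Scap, or 0.44 and 0.56 relative to the median of all genes there. Among the 12 pathway and zone lists, the median log2 fold change of each was above that of the 10 lipogenic genes except for the ChREBP list.

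**Figure D4:**
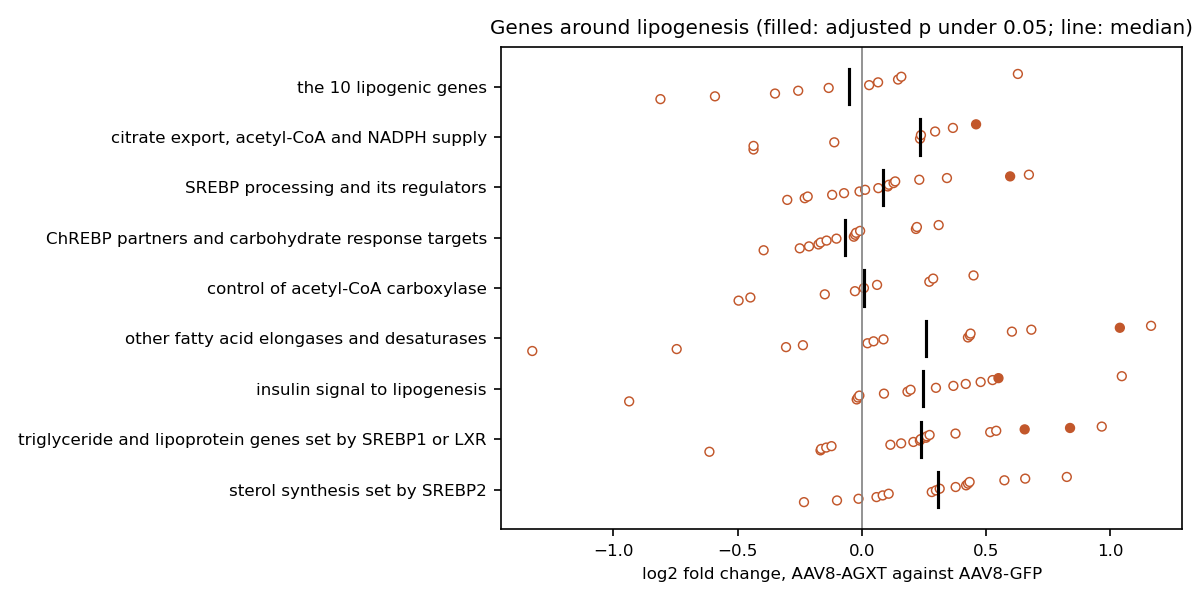
Log2 fold changes (AAV8-AGXT against AAV8-GFP, edgeR, n = 4 per group) of the 10 lipogenic genes and of the tested genes of 8 lists around them, 1 point per gene; filled points have an adjusted p under 0.05 over all genes and black lines mark medians. The lipogenic genes spread on both sides of 0 with a median of -0.05 and no filled point, and the filled points of the other lists are all to the right of 0.

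The direction of Srebf1, Acaca, Acacb, Fasn and Scd1 was the same in all 17 alternative analyses, whereas those of Mlxipl, Thrsp, Acly, Me1 and Elovl6 turned in at least 1. Scaling mattered for calls: with total counts and no composition factor the median of all genes was -0.22, the calls over all genes changed from 374 higher and 290 lower to 144 higher and 857 lower, and Srebf1, Acaca and Fasn passed. With libraries scaled to summed hepatocyte markers the median was -0.29, the calls were 54 higher and 294 lower, and Srebf1 and Fasn passed. Relative to these medians Srebf1 was at -0.83 and -0.84, Acaca at -0.36 and -0.36 and Fasn at -0.60 and -0.60, and Mlxipl at 0.007 and -0.006. The plot of alternatives shows these estimates per gene.

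**Figure D5:**
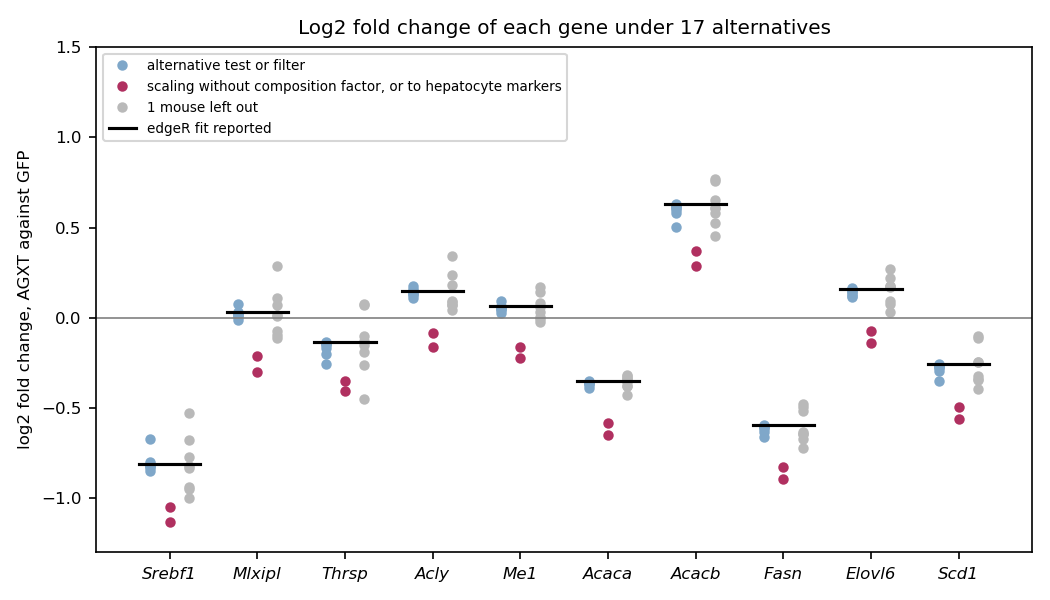
Log2 fold change of each lipogenic gene (AAV8-AGXT against AAV8-GFP) in the edgeR fit reported here (black line) and under 17 alternatives, namely other tests or filters (blue), scalings without a composition factor or to hepatocyte markers (red) and leaving out 1 mouse (grey). Srebf1, Acaca, Fasn and Scd1 stay below 0 and Acacb stays above 0 in every alternative, and the red points lie lowest or near lowest for most genes.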

How the data were processed

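The authors made stranded mRNA libraries from 8 livers, used Trimmomatic 0.35 to trim the reads, aligned these to GRCm38 by HISAT2 2.1.0.13, and ran HTSeq to tally read pairs per Ensembl gene. The deposited values are raw counts per gene for 52636 genes, with no normalization. The strand option of the counting is not given in the sources used here, so genes that overlap another gene are uncertain. GENCODE M21 held 52489 of the identifiers and was used for symbols, positions and exon lengths, and 147 were not found there.

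From the counts, 15248 genes passed filterByExpr and were tested in R 4.3.3 with edgeR 4.0.16 (TMM, quasi-likelihood, treatment as the only term, Benjamini-Hochberg over all tested genes). Calls needed an adjusted p under 0.05. The common biological coefficient of variation was 23.3%. Exact permutation tests over the 70 arrangements of 8 mice were two-sided, with 0.0286 as the smallest p. For single genes they used log2 CPM with a prior count of 2. Ratios used raw counts plus 0.5. Alternatives were DESeq2 1.42.0, limma 3.58.1 (voom, with and without quality weights), robust estimation, other scalings and filters, and each mouse left out. The code was tested on simulated data. Named genes were the 10 lipogenic genes, from each pathway list every called gene or else the gene with the smallest p, and the 4 genes most like each of Srebf1, Mlxipl, Fasn and Thrsp. Insig2, Nr1h3, Pklr, Txnip, Slc25a1, Pgd, Prkag2, Arntl, Npas2, Cry1, Scd2, Scd3, Scd4, Cfd and Fabp4 were named after their values were seen. Some genes that this rule names are not reported here. Of 12 hepatocyte markers 11 matched a symbol. The 10 genes and all lists were chosen with earlier results of these data known. Mice were taken as separate animals from their numbers, which are not shared between groups.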

Additional observations from a re-analysis of the deposited data

Results flagged for a closer look

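Acly in AAV8-GFP mouse 315 was at 67.2 CPM, and the nearest AAV8-GFP value was 44.9 CPM, so that the gap was 0.841 of the range of the group, above the critical value of Dixon's test at the 95% level. It was the only far value among 26 groups of 4 mice examined, where chance gives about 5% of groups. The same mouse had the highest AAV8-GFP values of Srebf1, Mlxipl, Me1, Acaca and Fasn.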

How the results depend on the processing

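Over all tested genes 664 were called in edgeR, against 2078 by DESeq2, 1410 by voom with quality weights, 1001 with total counts and no composition factor and 348 with hepatocyte scaling. Of the 10 lipogenic genes 0 were called in edgeR, against 4 by DESeq2, 2 with quality weights (Acaca and Fasn), 3 with total counts, 2 with hepatocyte scaling and 1 without a low-count filter (Fasn). Leaving out 1 mouse at a time, the calls over all genes ran from 2 (without mouse 311) to 643 (without mouse 309), with 15 without mouse 314, 14 without mouse 319, 177 without mouse 308, 193 without mouse 303 and 411 without mouse 316, and the calls among the lipogenic genes ran from 0 to 2 (Acaca and Fasn, without mouse 309). The log2 ratio of Acacb to Acaca ran from 0.78 to 1.09 with 1 mouse left out, that of Scd1 to Scd2 from 0.21 to 0.99, and that of Elovl6 to Elovl5 from -0.043 to 0.19, being negative without mouse 314 and, at -0.0041, without mouse 309.

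Signs turned for 5 genes, none of them called in any alternative. With total counts the log2 fold change was -0.21 for Mlxipl, -0.084 for Acly, -0.16 for Me1 and -0.074 for Elovl6, and with hepatocyte scaling it was -0.30, -0.16, -0.23 and -0.14, while the median of all genes shifted by -0.24 and -0.31. Mlxipl was at -0.011 with at least 10 counts in every mouse and at -0.11, -0.074 and -0.098 without mouse 303, 314 or 308, and ran up to 0.29 without mouse 315. Thrsp was at 0.072 without mouse 311 and 0.079 without mouse 308, and ran down to -0.45 without mouse 309, and Me1 was at -0.022 without mouse 311 and -0.0063 without mouse 309, and ran up to 0.17 without mouse 319. The cause of these differences between settings was not tested. With 4 mice per group, the 95% intervals of the 6 genes with an unadjusted p above 0.05 still reach as far as 0.38 for Me1, the narrowest, and -0.83 for Thrsp, the widest, on the log2 scale. No paired analysis was possible because the groups share no replicate numbers.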
